A study of Mus musculus
Mus spretus with 18 samples.

Results

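The genes described here encode the ligands and receptors that steer growing axons: ephrins and their Eph receptors, Slit proteins and Robo receptors, Unc5 receptors, semaphorins and plexins. They were chosen by gene symbol alone, on the autosomes, which gave 62 entries for 61 symbols among the 38924 genes of the expression table. Efna5 has 2 entries there, among which shared reads could be split, so its values are uncertain. The symbols Unc50 and Unc5cl match the Unc5 pattern by name and are not netrin receptors. Efnb1, Plxna3 and Plxnb3 match as well but lie on chromosome X and were left out. By role there were 6 ephrin-A and 2 ephrin-B ligand entries, 9 EphA and 5 EphB receptors, 3 Slits, 4 Robo and 4 Unc5 receptors, 20 semaphorins, 7 plexins and the 2 name matches.

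RNA-seq was available from F1 hybrids of a female C57BL/6J (a laboratory mouse strain) and a male SPRET/EiJ (an inbred strain of Mus spretus). Cerebral cortex, heart, kidney, lung, spleen and liver came from 2 females aged 8 weeks. The liver data came from an earlier study of these animals, and the strain given for them in the labels is spelled differently. The embryonic stem cells (ESC) were 2 separate clones in culture with 2i and LIF. According to the paper, heart, kidney and cortex were sequenced with longer reads than spleen, lung and ESC. The longer reads were trimmed to the shorter length before alignment. Sequencing and tissue cannot be told apart between these sets. F1 fibroblasts in culture were treated for 4 h with 0.1 μM pladienolide B (PladB), an inhibitor of the SF3B complex of the spliceosome, or with its solvent DMSO, with 2 libraries each. This made 18 libraries of 9 groups, and nothing in the sources used here says that the fibroblast replicates were separate cultures. With 2 libraries in a group, the p-values rest only on the spread within such pairs, pooled over genes or exons. In the tests of exon inclusion after PladB and between alleles in fibroblasts, an exon's own spread did not enter. There the spread of exons with similar read numbers was used.

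Axon guidance proteins act in pairs. Ephrins are held on the membrane and signal to Eph tyrosine kinases on the touching cell, while Slits, netrins and class 3 semaphorins are secreted and bind Robo, Unc5 and Dcc, and plexin-neuropilin receptors. Outside the nervous system many of the same proteins shape blood vessels, epithelia and immune cell contacts.

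Expression was read as TPM, the share of a library's transcripts that a gene takes, which is corrected for gene length, so levels can be compared between genes. The members' summed level was highest in lung, with 2025 and 2053 TPM, and in cortex, with 1795 and 1923 TPM. It was lowest in liver, with 531 and 549 TPM. Markers of each labelled tissue summed highest in that tissue: 6 of heart muscle to 54141 and 54600 TPM in heart, 6 of kidney epithelium to 56585 and 61294 in kidney, 5 of lung epithelium to 208934 and 193603 in lung, 5 of lymphocytes to 3737 and 2499 in spleen, 5 of hepatocytes to 114524 and 131517 in liver and 5 of pluripotent cells to 3348 and 3434 in ESC. Hepatocyte markers also reached 1423 and 1224 TPM in cortex, nearly all Ttr, and red blood cell markers, 5 of 7 being found, ran from below 1 TPM in ESC to 7529 TPM in spleen replicate 2. Cortex held 59 of the 62 entries at more than 1 TPM on average, lung 51 and liver 22. The mean was highest in cortex for 33 entries (53.2%, against 26.3% of all 21925 genes tested) and in lung for 15 (24.2%, against 11.4%), and no entry was highest in heart. Bulk tissue was sequenced, so fewer cells of a type and less RNA per cell cannot be told apart.

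**Figure D1:**
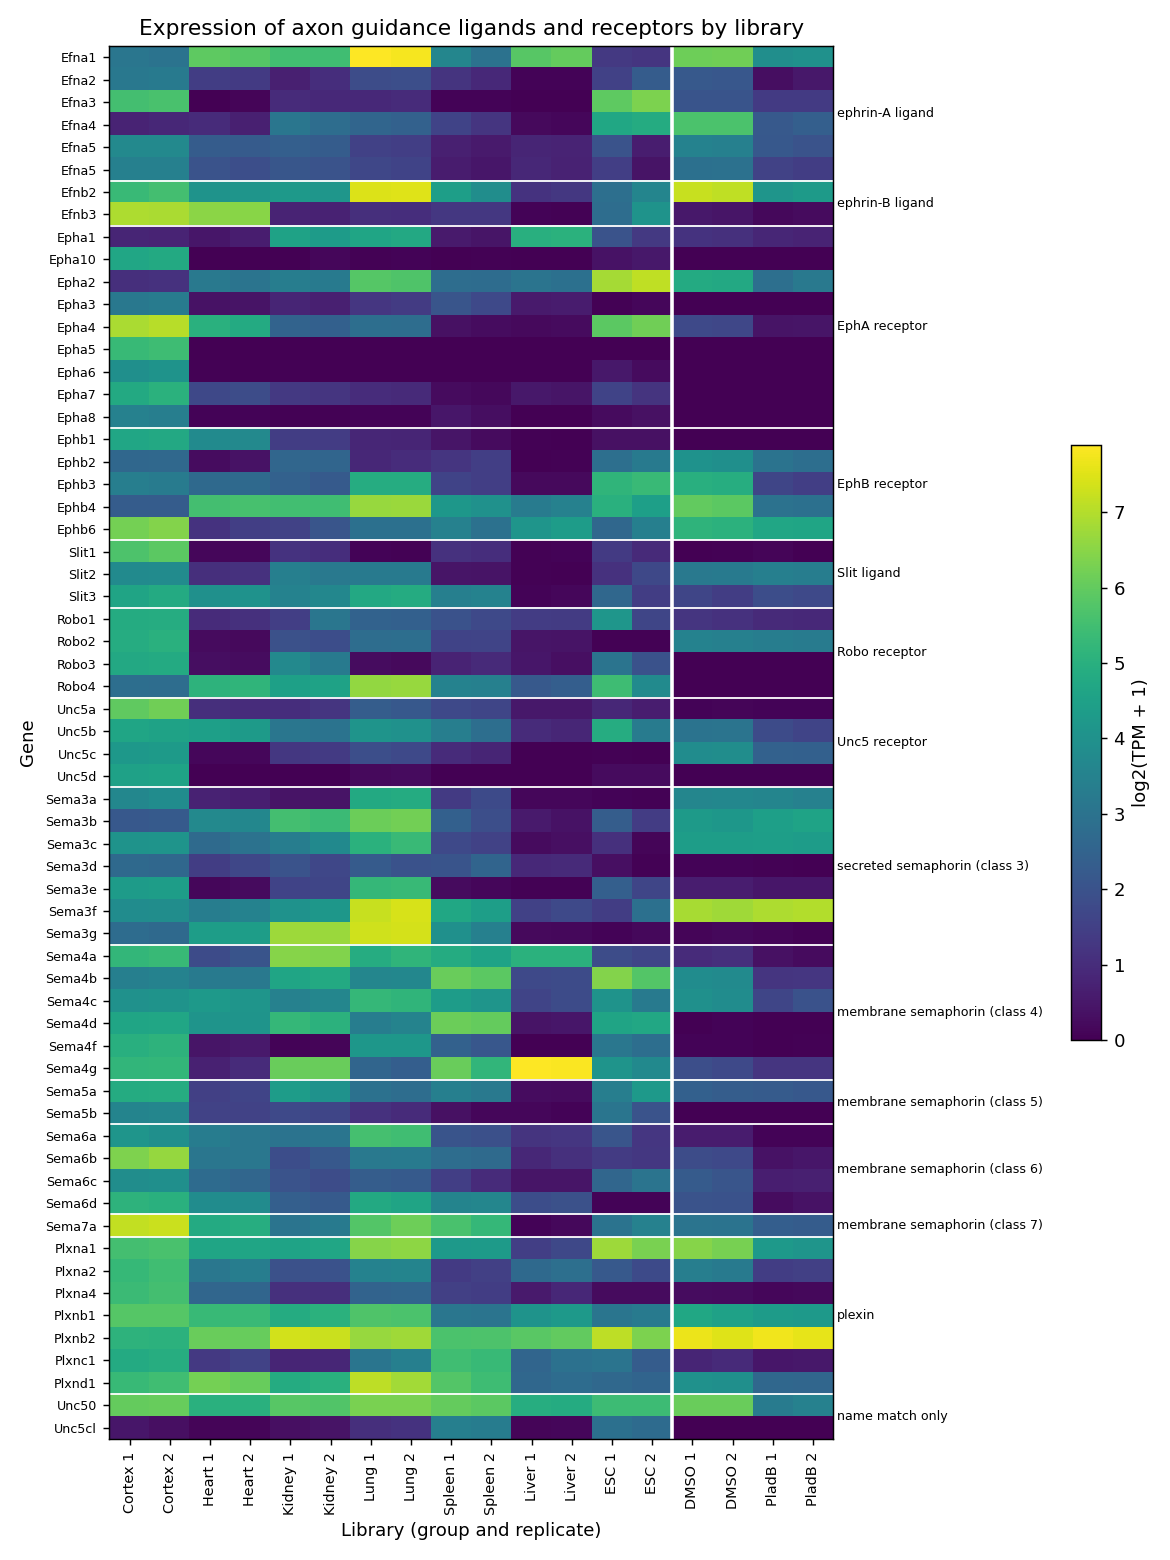
Expression of the 62 entries in each of the 18 libraries, as log2(TPM + 1), with genes grouped by role and the fibroblast libraries right of the white line. Most EphA receptors are brightest in cortex, with Epha1 and Epha2 as exceptions, and most class 3 semaphorins in lung.

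Each tissue was compared with the mean of the other 6 on log2(TPM + 1), in a single limma fit with Benjamini-Hochberg adjustment over all genes, and a gene was called at an adjusted p of 0.05 and a log2 difference of at least 1. The 7 comparisons share their libraries and are not independent. Across tissues every one of the 62 entries was called, but so were 97.9% of all genes, so nothing can be read from that count. In cortex 43 entries were higher (29.7% of all genes were) and 9 lower (15.3% of all genes). The median log2 difference was 2.13 for the members and 0.23 for all genes, and after quantile normalization 35 entries were higher and 11 lower, where 19.8% and 24.8% of all genes were. Markers of more than neurons were high in cortex. For example, 5 neuronal markers summed to 2731 and 2990 TPM and 4 astrocyte markers to 892 and 922 TPM, all above 1 TPM and led by Slc17a7 and Slc1a2. Astrocyte markers also reached 751 TPM in liver, there led by Aldh1l1. Their part in the cortical counts was not tested.

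EphA receptors, which bind ephrin-A ligands, numbered 7 of 9 higher in cortex and 2 lower. Epha5 was at 38.5 and 42.2 TPM in cortex and at most 0.0207 TPM in any other tissue library. No other library came near cortex, and the log2 difference was 5.36 ± 0.05 (SE; limma, adjusted p = 2.85e-13). Epha4 was at 117 and 130 TPM in cortex, 59.2 and 71.8 in ESC, 31.5 and 27.4 in heart, and at most 6.17 in the other tissues. The order was cortex, ESC, heart, lung, kidney, spleen and liver, and neighbours in it did not overlap.

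Epha2 and Epha1, receptors of the same class with known roles in epithelia, ran the other way. Epha2 was at 1.07 and 1.19 TPM in cortex and at 111 and 141 TPM in ESC, its highest tissue. The cortical difference was −3.06 ± 0.09 (limma, adjusted p = 7.62e-10), and every other tissue lay above cortex. Epha1 was called lower in cortex as well (−2.03 ± 0.15), and its highest levels were in liver, 30.6 and 32.1 TPM. Part of the span of Epha1 overlaps that of Zyx. Spans of Epha5, Unc5a, Sema3b and Plxna1 also meet a protein-coding gene (Gm42163, Hk3, Lsmem2 and Gm40415).

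The Slit ligands and the Unc5 receptors, which bind netrins, were also higher in cortex, 3 of 3 and 4 of 4; after quantile normalization 3 of the 4 Unc5 receptors kept the call. Slit1 had 50.3 and 58.9 TPM in cortex and at most 1.55 TPM in any other tissue library, a log2 difference of 5.19 ± 0.10. Unc5a had 61.9 and 70.8 TPM in cortex and at most 4.02 TPM in any other tissue library, a log2 difference of 4.85 ± 0.09. For both genes the cortex libraries stood clear of all others. Of the Robo receptors, to which Slits bind, Robo1, Robo2 and Robo3 were higher in cortex. Robo4, known from endothelium, was lower there (−1.61 ± 0.30; limma, adjusted p = 0.000736).

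The members most abundant in cortex were Sema7a, a lipid-anchored semaphorin, at 142 and 152 TPM, Epha4, and Efnb3, an ephrin-B ligand, at 119 and 117 TPM. Over the 7 tissue means, the members whose log2(TPM + 1) ran most like Sema7a were Slit3 (Pearson's r = 0.924), Sema4c (0.860) and Sema6b (0.844). Epha4 ran most like Sema6c (0.953), Sema5b (0.942) and Efnb3 (0.850), and Efnb3 most like its receptor class member Ephb1 (0.881), Epha4 (0.850) and Sema6c (0.834). The 7 points rest on 14 libraries, and these values are descriptions.

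Lung was the second tissue with a broad pattern, with 24 entries higher (19.1% of all genes were) and 5 lower (9.27%), or 23 and 9 after quantile normalization (14.7% and 13.8%). The secreted class 3 semaphorins stood out among the roles, with 6 of 7 higher and a median log2 difference of 3.71, against 0.04 for all genes. Sema3g had 160 and 164 TPM in lung, 107 and 104 in kidney, and at most 20.01 in the other tissues (log2 difference in lung 4.37 ± 0.11; limma, adjusted p = 9.69e-10). Sema3f had 149 and 169 TPM in lung and at most 24.9 in the other tissues (4.03 ± 0.28). Sema3e had 36.9 and 38.8 TPM in lung and 19.02 and 20.01 in cortex, with at most 4.28 in the other tissues (3.87 ± 0.15). In each case the lung libraries lay above those of the other tissues.

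Efna1 and Efnb2, ephrin ligands of both classes, were the most abundant members in lung, at 236 and 218 TPM and at 178 and 180 TPM. Ephb4, a receptor for Efnb2 known from veins, was at 99.99 and 103 TPM there, Robo4 at 96.2 and 102 TPM. The 6 endothelial markers examined, all above 1 TPM in lung, summed to 1888 and 1988 TPM in lung, 516 and 510 in heart, 216 and 215 in kidney, 206 and 165 in spleen, 152 and 99.0 in ESC, 63.5 and 60.9 in cortex and 32.6 and 45.1 in liver, with Cdh5 the most abundant in lung. Their part in the lung result was not tested. The lung libraries also held heart muscle RNA, 1590 and 1230 TPM summed over 6 markers, most of all Myl7. Macrophage markers, 4 of 5 being found and Lyz2 the most abundant, summed to 4752 and 6149 TPM in lung, with spleen next at 1722 and 1804. The 5 markers of smooth muscle and pericytes, most of all Acta2, summed to 1175 and 1159 TPM in lung, with spleen next at 1115 and 801. The part of these 3 lists was not tested either.

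In ESC 10 entries were higher and 24 lower, against 29.7% and 18.8% of all genes (48.5% in either direction). Efna3 was at 59.7 and 79.0 TPM, above cortex (45.0 and 47.8), and below 1 TPM in every other tissue library (log2 difference 4.85 ± 0.10; limma, adjusted p = 1.53e-10). Efna4 was at 24.9 and 28.1 TPM and at most 7.56 in the other tissues (3.33 ± 0.12), and Epha2, their receptor class member, rose by 3.81 ± 0.09. The class 3 semaphorins were low, 6 of 7 being called. The clones differed more than organ replicates did for some members: Robo4 was at 42.1 and 12.6 TPM and Robo1 at 16.7 and 2.15 TPM. Marker sums also differed between these 2 libraries, with 72.4 and 12.4 TPM for smooth muscle and pericytes, 151 and 40.1 for macrophages, 42.9 and 18.5 for fibroblasts, 152 and 99.0 for endothelium and 5.39 and 28.4 for lymphocytes, and their part was not tested.

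Liver had 42 entries lower and 4 higher, against 51.6% and 6.95% of all genes. The median of all genes was itself −1.04 there, and quantile normalization left 28 lower and 6 higher, against 18.1% and 13.7% of all genes. The 4 higher were Sema4g, Epha1, Efna1 and Ephb6, of which Ephb6 was named after its values were seen. Sema4g, a membrane semaphorin, was highest of these, at 233 and 227 TPM, with the next highest library at 67.1 TPM (3.82 ± 0.19; 4.87 above the median gene). Sema7a was at 0.06 and 0.13 TPM, the lowest of all tissues (−4.84 ± 0.14), and Sema4d was at 0.34 and 0.39 TPM (−4.23 ± 0.08).

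In heart 8 entries were higher (9.1% of all genes) and 20 lower (25.4%), with the median gene at −0.53; after quantile normalization 17 were higher and 11 lower (13.8% and 13.1% of all genes), so the balance of directions depends on the scaling. Efnb3 was at 91.1 and 87.9 TPM, second to cortex, and at most 15.7 in the remaining tissues (4.25 ± 0.23). Ephb1, a receptor of ephrin-B ligands, was at 12.7 and 12.2 TPM, likewise second to cortex (2.47 ± 0.07). Sema4g was at 0.66 and 0.96 TPM, the lowest of the tissues (−4.34 ± 0.19).

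Kidney had 14 entries higher and 10 lower, against 12.7% and 11.7% of all genes. Sema3g (3.65 ± 0.11), Sema3b (2.70 ± 0.20) and Sema4a (2.48 ± 0.10) led, and Plxnb2, a receptor for class 4 semaphorins, was the most abundant, at 161 and 151 TPM. Spleen had 6 higher and 21 lower, against 21.4% and 15.3% of all genes. Plxnc1, the plexin that binds Sema7a, was at 42.9 and 38.7 TPM, above all other tissues (2.76 ± 0.18). Sema4d, known from lymphocytes, was at 68.9 and 64.2 TPM, also highest in spleen (2.33 ± 0.08), while Epha4 was at 0.29 and 0.20 TPM (−3.59 ± 0.09).

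The other genes of these pathways, 45 symbols with 47 entries for netrins, neuropilins, guidance receptors and cytoplasmic effectors, were counted beside them. In cortex 35 were higher (74.5%, against 29.7% of all genes) and 2 lower (4.26% against 15.3%), with Crmp1, a transducer of semaphorin signals, at a log2 difference of 6.74 ± 0.18 and the netrin receptor Dcc at 3.18 ± 0.07. In lung 18 were higher (38.3% against 19.1%) and 5 lower (10.6% against 9.27%), and Nrp1, coreceptor of class 3 semaphorins, was among the higher with 2.68 ± 0.21. In liver 35 were lower (74.5% against 51.6%) and 1 higher (2.13% against 6.95%). In heart 8 were higher (17% against 9.1%) and 11 lower (23.4% against 25.4%), and in kidney 5 were higher (10.6% against 12.7%) and 11 lower (23.4% against 11.7%). In spleen 6 were higher (12.8% against 21.4%) and 12 lower (25.5% against 15.3%), and in ESC 11 were higher (23.4% against 29.7%) and 12 lower (25.5% against 18.8%). After quantile normalization these counts became 28 and 6 in cortex, 13 and 5 in lung, 4 and 24 in liver, 13 and 4 in heart, 5 and 14 in kidney, 5 and 14 in spleen, and 8 and 14 in ESC, so the balance in heart depends on the scaling. The shares of all genes on that scale were 12.2% higher and 12.5% lower in kidney, 16.5% and 18.8% in spleen and 22.3% and 22.2% in ESC, and stand above for the other tissues.

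Splicing of the members was measured as percent spliced in (PSI), the share of transcripts that include an alternative exon, given here as a fraction from 0 to 1. It was computed from junction reads of skipped exon (SE) events with at least 20 reads in each library. The tissue tables hold 333 SE events in 58 member genes, of 97090 events in all. The member genes together had between 34226 and 119184 junction reads per tissue library, a median of 73549.5, out of 46558287 to 129496306 in all; a read can count for several events. Events near a PSI of 0 or 1 in every library were left out, which kept 33 member exons in 19 genes.

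Of these 33 exons 22 differed between tissues by at least 0.1 at an adjusted p of 0.05 (66.7%, against 42% of the 10174 exons tested). The test was a quasi-binomial model with dispersions moderated by limma and Benjamini-Hochberg adjustment. The median switch score, the largest difference between tissue means, was 0.286 for the members and 0.133 for all. Because the filter itself favours exons that vary, the count without it stands beside this one: 16 of 127 member exons (12.6%) and 8.26% of all 40714. Of the 22 called exons, 18 have a length that is a multiple of 3, so that their inclusion keeps the reading frame if they are coding (81.8%, against 55.5% of all called exons). Coding status was not examined. The Sema6a exons of 165 and 186 nt overlap, as do the Sema6d exons of 156 and 168 nt. Each was counted separately among the 33, the 22 and the 18, and all other genes were counted in the same way.

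The largest switch was a micro-exon of 12 nt in Slit2, the ligand of Robo receptors, at chr5:48191003-48191014 (mm10, + strand). Its PSI was 0.916 and 0.924 in cortex and 0.0197 and 0.0488 in kidney, on 90 to 164 reads, a difference of 0.886 (adjusted p = 3.39e-07). The other tissues had too few reads for a value. Robo1, a receptor for Slit2, has an exon of 27 nt at chr16:72993667-72993693 (+ strand) with PSI of 0.917 and 0.944 in cortex, 0.681 and 0.904 in kidney and 0.598 and 0.876 in ESC. It was at 0.198 and 0.448 in lung and 0.369 and 0.485 in spleen, so lung and spleen lay below the rest (switch score 0.607, adjusted p = 0.000450), though with only 21 to 34 reads in several of these libraries.

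Class 6 semaphorins, membrane ligands that can also signal as receptors, gave the remaining named exons. An exon of 96 nt in Sema6c at chr3:95171791-95171886 (+ strand) was nearly skipped in cortex, with PSI of 0.0788 and 0.0873. It was at 0.737 and 0.756 in heart, 0.645 and 0.490 in lung, 0.284 and 0.594 in kidney and 0.442 and 0.289 in ESC, so cortex was below all others (switch score 0.663, adjusted p = 1.08e-05). A second Sema6c exon, of 90 nt at chr3:95163432-95163521, went the other way, with 0.855 and 0.976 in cortex and 0.412 and 0.484 in heart (0.468, adjusted p = 0.0132), and missed the threshold at the same size without the filter (adjusted p = 0.0609). Without heart replicate 1 the score was 0.432, in a smaller fit. In Sema6a an exon of 51 nt was included at 0.553 and 0.487 in cortex and at most 0.170 in the 4 other tissues with reads (0.487, adjusted p = 2.36e-05).

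**Figure D2:**
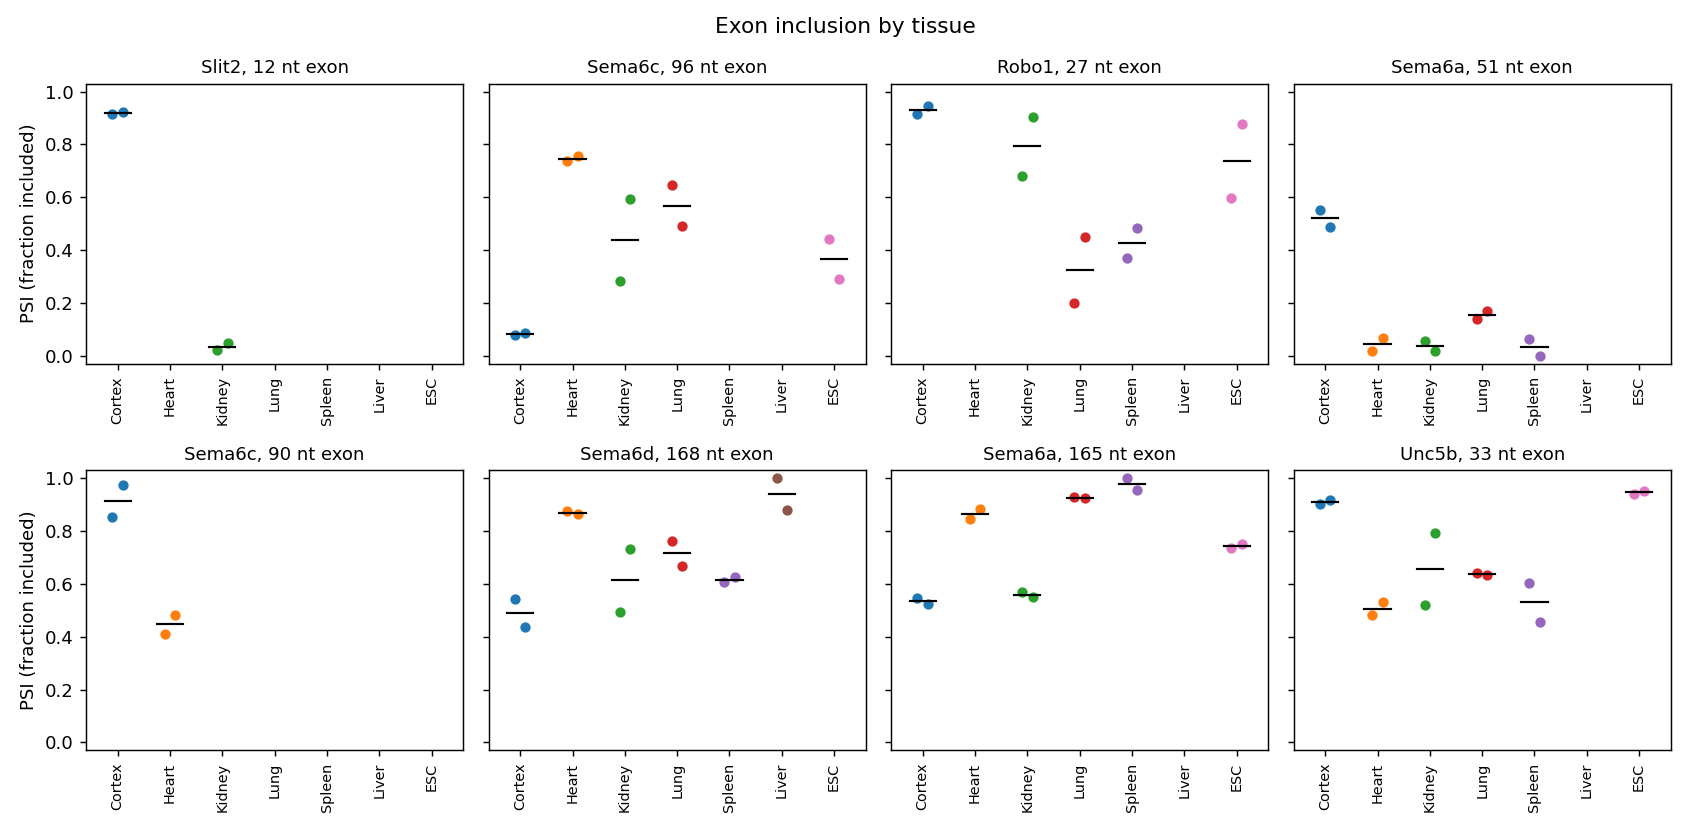
PSI in each library of the 8 called member exons with the largest switch scores. Points are libraries, lines are tissue means, and tissues without 20 reads in both libraries are empty. Cortex lies apart from every other tissue with reads in the Sema6c and Sema6a exons of 96 and 51 nt, and from kidney, the only other tissue with reads, in the Slit2 exon of 12 nt.

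A smaller cortical exon lies in Robo2, of 126 nt at chr16:73933046-73933171 (− strand). Its PSI was 0.315 and 0.286 in cortex and at most 0.00917 in kidney, lung and spleen (0.299, adjusted p = 1.11e-08). An exon of 33 nt in Unc5b was at 0.903 and 0.919 in cortex and 0.941 and 0.953 in ESC, and at 0.482 and 0.530 in heart (0.441). These Robo2 and Unc5b exons were chosen after their values were seen.

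In the F1 hybrid, reads with strain variants tell the C57BL/6J allele from the SPRET/EiJ allele within the same nucleus, and both alleles were compared in each group on 20 or more reads per allele and library. Across the tissues 47 member exons could be tested and 5 comparisons were called (10.6%, against 17.2% of all exons), 1 in cortex, 3 in lung and 1 in spleen. The background was 16.5% in cortex, 17.7% in lung and 15.5% in spleen. No member exon was called in heart (of 12), kidney (of 10), liver (of 1) or ESC (of 8), where the quasi-binomial test called 16.1%, 21.9%, 15.5% and 2.2% of all exons; at an unadjusted p under 0.05 there were 1, 2, 0 and 0 member exons. In ESC the share rests on a fit without the library as a block; with it 752 of all exons were called in place of 116, and still 0 members. Without the filter near 0 and 1, 2 of 208 member exons were called (0.962%, against 1.99% of all). The calls lost were those of Unc5cl in spleen and of Sema4a and Sema3b in lung, described below. Their differences were of the same size (quasi-binomial test, adjusted p = 0.146, 0.14 and 0.187).

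In cortex, a Robo2 exon of 273 nt at chr16:73898912-73899184 (− strand) had PSI of 0.191 and 0.255 on the C57BL/6J allele and 0.482 and 0.412 on the SPRET/EiJ allele. The alleles did not overlap, with a difference (C57BL/6J minus SPRET/EiJ) of −0.224 (adjusted p = 0.00354). In spleen, an Unc5cl exon of 68 nt at chr17:48463577-48463644 (+ strand) had 0.289 and 0.536 against 0.798 and 0.822, a difference of −0.398 (adjusted p = 0.0101). Unc5cl matches by name only.

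In lung, the 51 nt exon of Sema6a that marked cortex above had 0.245 and 0.183 on the C57BL/6J allele and 0.0343 and 0.0634 on the SPRET/EiJ allele (0.165, adjusted p = 0.00263). The same exon differed by 0.137 in cortex and 0.0464 in heart, neither called (adjusted p = 0.308 and 0.510). A Sema4a exon of 113 nt at chr3:88455080-88455192 (− strand) had 0.833 and 0.660 against 1 and 1 (−0.253, adjusted p = 0.0263), and the difference was −0.167 without lung replicate 2 and −0.340 without replicate 1, neither called. A Sema3b exon of 385 nt at chr9:107606550-107606934 (− strand) had 0.569 and 0.805 against 0.976 and 0.843 (−0.223, adjusted p = 0.0282), and the difference was −0.0387 without lung replicate 1, so that library decided the call.

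The same Sema3b exon differed in fibroblasts, in an event with another flanking exon than that of the lung call. After DMSO it had PSI of 0.219 and 0.329 on the C57BL/6J allele and 0.667 and 0.745 on the SPRET/EiJ allele (−0.431, adjusted p = 0.000208). After PladB it had 0.389 and 0.424 against 0.725 and 0.676, a difference of −0.294 that missed the threshold (adjusted p = 0.0680). The change of this difference with treatment was not called (interaction, adjusted p = 0.929). In the event used for fibroblasts the difference was −0.167 in kidney (adjusted p = 0.145) and −0.0550 in lung, with no call for a change between these tissues (interaction, adjusted p = 0.995), so the size of the lung difference depends on the event.

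Besides it, after DMSO a Plxnb1 exon of 53 nt at chr9:109099271-109099323 (+ strand) had PSI of 1 and 1 against 0.870 and 0.782 (0.174, adjusted p = 0.0262), making 2 called of 10 member exons (25% of all exons were called). Without the filter near 0 and 1 it was not called at the same size (quasi-binomial test, adjusted p = 0.165). The same exon differed by 0.0505 after PladB, in an event with another flanking exon (adjusted p = 0.401). After PladB a Sema3b exon of 141 nt at chr9:107605447-107605587 had 0.657 and 0.705 against 0.330 and 0.481 (0.275, adjusted p = 0.0370), the only call of 15 (14.7% of all exons). This call too was lost at the same size without that filter (adjusted p = 0.131). In the same event the difference after DMSO was 0.394. In the event described after DMSO, with another flanking exon, it was −0.127 (adjusted p = 0.385), so the direction depends on the event. With the library as a block, which pairs both alleles of a library, an Epha2 exon of 100 nt was called as well (0.3002, adjusted p = 0.0473), making 2. No member exon showed an allelic difference that changed between tissues (0 of 13, 0.392% of all) or with treatment (0 of 4, 0.287% of all); the quasi-binomial test gave 0 at an unadjusted p under 0.05 in both. Each of the 8 allelic calls rests on 2 libraries. Without either library each of the 8 kept its sign, for example at −0.157 and −0.291 for Robo2 in cortex, and the calls lost in these smaller fits say nothing on stability.

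**Figure D3:**
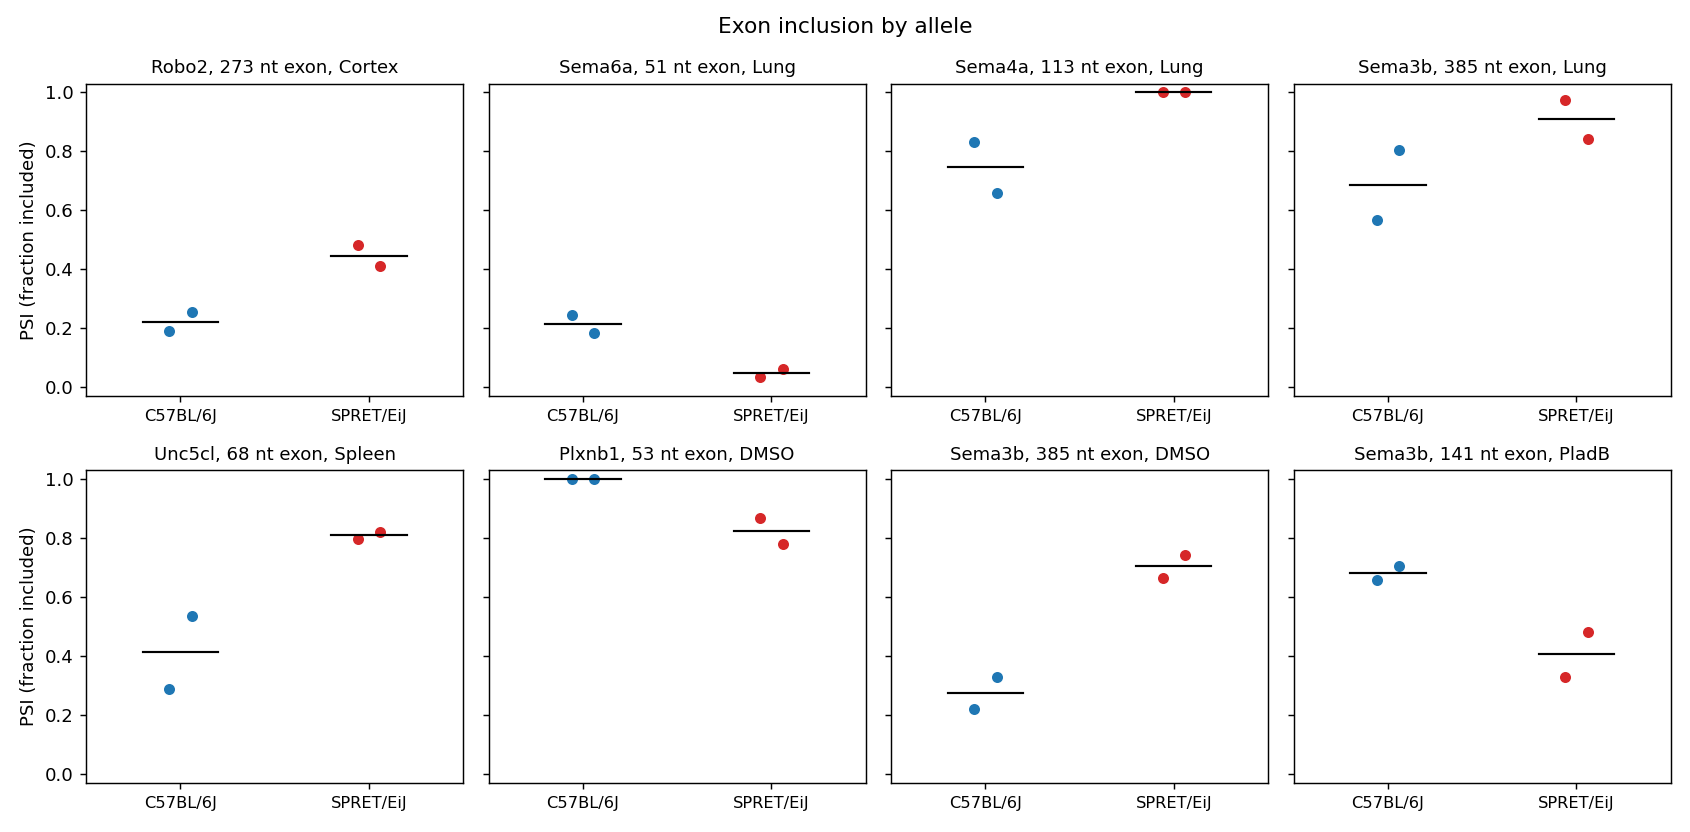
PSI of each allele in both libraries for the 8 allelic comparisons that were called, with the gene, exon length and group above each panel. Points are libraries and lines are means; the alleles do not overlap in any panel.

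PladB shifted the TPM of most genes: the median log2 difference over 13577 genes was −0.98, so changes are best read against it. Of 38 member entries tested, 25 fell and none rose, where 64.3% of all genes fell and 8.43% rose at the threshold of 0.5 (72.7% in either direction). In limma 4 members had a positive difference at an unadjusted p under 0.05, all below 0.5, while after quantile normalization 11 rose and 15 fell (29.3% and 33.1% of all genes). The members' median was −1.32.

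The largest falls were in 2 EphB receptors, 2 ephrins and Unc50. Ephb3 was at 30.4 and 28.98 TPM after DMSO and 2.15 and 1.76 after PladB, a log2 difference of −3.38 ± 0.08 (limma, adjusted p = 2.56e-06) or −2.40 against the median gene. Efna4 went from 49.2 and 49.6 TPM to 3.57 and 4.29 (−3.36 ± 0.08), Ephb4 from 63.4 and 59.3 to 6.91 and 6.56 (−3.01 ± 0.06), and Efnb2 from 148 and 139 to 16.5 and 18.7 (−2.97 ± 0.07). Unc50, which matches by name only, went from 67.7 and 66.8 to 8.67 and 10.2 (−2.72 ± 0.08). In none of these did the groups overlap, and each also fell after quantile normalization, by 1.71 to 2.30.

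Other members kept their TPM. Plxnb2 was at 202 and 180 TPM after DMSO and 210.0 and 191 after PladB, and Sema3f, a secreted semaphorin, at 114 and 107 and then 120.3 and 125. The 4 class 3 semaphorins and 2 Slits tested lay between −0.13 and 0.28 and none was called; relative to the median gene they lay between 0.86 and 1.27, and after quantile normalization 5 of these 6 were called higher. Among called members, Sema4g, Efna3, Ephb2, Plxnd1, Sema7a, Unc5c and one of the Efna5 entries fell on the TPM scale and had the opposite sign after quantile normalization. Of the 37 partner entries tested 28 fell (75.7%, against 64.3% of all genes) and 1 rose (2.7% against 8.43%), or 19 and 7 after quantile normalization (33.1% and 29.3% of all genes). The fibroblast marker sum was 2671 and 2585 TPM after DMSO and 2465 and 2367 after PladB, and the endothelial markers were near 0 in all 4 libraries. Within the 5 fibroblast markers Pdgfra was at 441 and 437 TPM after DMSO and 82.8 and 82.6 after PladB, while Col1a2 was at 1100.3 and 1071 and then 1272 and 1224, and Dcn at 32.7 and 32.9 and then 46.0 and 46.8. The 5 smooth muscle and pericyte markers summed to 5122 and 5189 TPM and then 7760 and 7430, with Tagln at 1533 and 1606 and then 2998 and 2917. The part of these shifts in the members' changes was not tested.

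**Figure D4:**
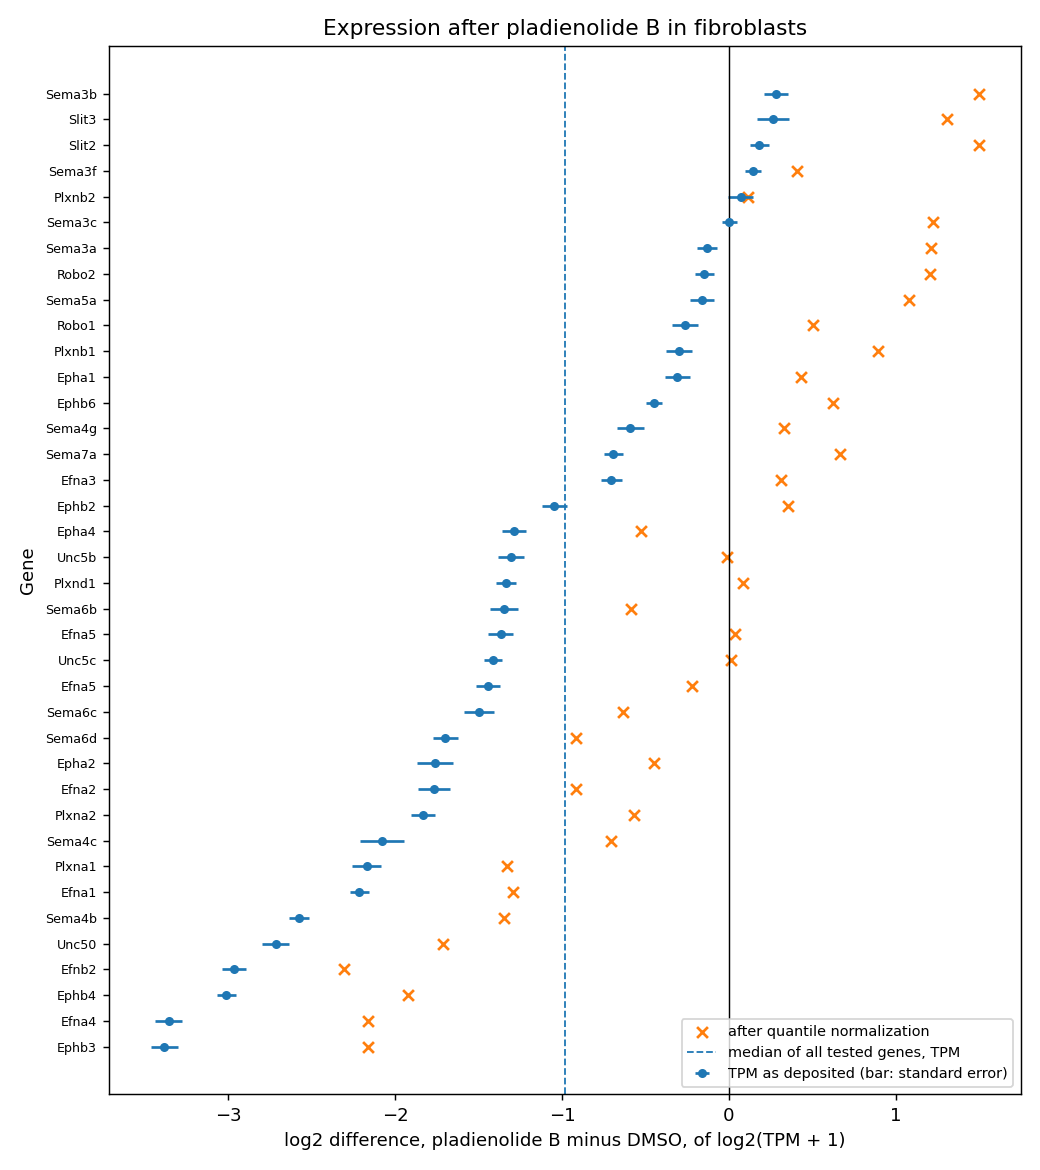
Log2 difference between PladB and DMSO for the 38 member entries tested, on TPM as deposited (points, bars are standard errors) and after quantile normalization (crosses). Ephb3, Efna4, Ephb4 and Efnb2 are lowest on both scales, while secreted ligands lie near 0 on TPM and mostly above 0 after quantile normalization.

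Exon skipping after PladB was common in the whole data set, and the members did not stand apart from it. Without a filter on PSI, 9 of 137 member exons fell by at least 0.1 at an adjusted p of 0.05 and none rose, 0 also at an unadjusted p under 0.05 in the quasi-binomial test; this is 6.57%, against 6.92% of all 41485 exons that fell. The median change was −0.00415 for the members and −0.00422 for all. With events near 0 or 1 left out, 15 of 28 member exons were called, all lower (53.6%, against 47.4% of all exons lower and 48.7% in either direction). That filter keeps an exon that was fully included after DMSO only if PladB lowered it, and 20 of the 28, among them all 15 called, passed through the PladB libraries alone, so this count supports nothing about the members.

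The exons with the largest falls lay in ephrin ligands, whose inclusion after DMSO was nearly complete. An Efnb2 exon of 93 nt at chr8:8623148-8623240 (− strand) had PSI of 0.996 and 0.995 after DMSO and 0.163 and 0.279 after PladB, a change of −0.775 (adjusted p = 4.70e-81). An Efna1 exon of 66 nt at chr3:89272957-89273022 (− strand) went from 0.994 and 0.998 to 0.275 and 0.212 (−0.753, adjusted p = 1.76e-47). Both were as large without the filter, with adjusted p of 2.83e-14 and 3.29e-12. Reads for the Efnb2 event numbered 2700 and 2478 after DMSO and 125 and 179 after PladB.

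For 3 called exons the result depends on which flanking exons are taken, since a further event with more reads skips the same exon. An Efna1 exon of 296 nt fell by 0.433 in the event that passed the filter and changed by 0.00213 in the event with most reads. An Epha2 exon of 56 nt changed by −0.389 and −0.0549, and an Efna5 exon of 66 nt by −0.445 and −0.0592, the second value of each not being called. The direction or call of these falls therefore depends on the event.

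Of the other called exons, an Efna1 exon of 51 nt fell by 0.237, a Sema7a exon of 88 nt by 0.226, a Sema4b exon of 182 nt by 0.222 and a Plxna2 exon of 154 nt by 0.219. The Sema4b change was −0.0909 without PladB replicate 2 and the Plxna2 change −0.0976 without PladB replicate 1. The Sema4g exon of 164 nt had PSI of 0.962 and 1 after DMSO and 0.474 and 1 after PladB. The fall of 0.244 came from 1 library, and the change was 0.0189 without that library. The difference between the PladB libraries of this exon did not enter the spread that the test used. Without the filter on PSI this exon was not called at the same size (quasi-binomial test, adjusted p = 0.0932). Retained introns could be tested in 3 members. An intron of 88 nt in Sema4c at chr1:36551839-36551926 (− strand) was retained at 0.101 and 0.0598 after DMSO and 0.367 and 0.408 after PladB (0.307, adjusted p = 0.000167). The introns in Sema4g and Plxnb2 differed by 0.119 and 0.0104 and were not called, where 66.1% of all introns tested were called.

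**Figure D5:**
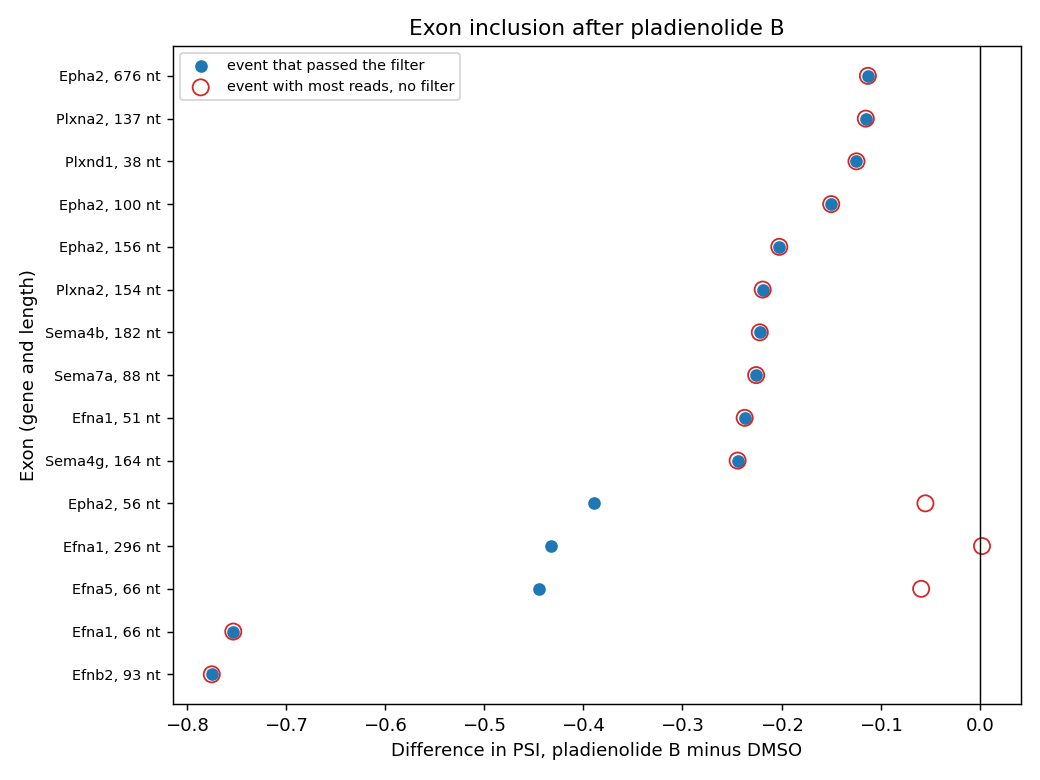
Change in PSI (PladB minus DMSO) of the 15 called member exons, for the event that passed the filter (filled) and for the event with most reads at the same exon (open). The symbols fall together except for the Efna1 exon of 296 nt, the Efna5 exon of 66 nt and the Epha2 exon of 56 nt, where the open symbol is near 0.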

How the data were processed

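The authors aligned reads with HISAT2 2.0.1 to mm10 and to a SPRET/EiJ genome, and gave each read to the closer genome. The TPM were deposited by the authors from strand-specific counts per gene that split reads over overlapping genes (spans of 30 of the 61 members meet another gene in RefSeq, GRCm38.p6). The junction read counts per event and library were deposited by the authors as rMATS wrote them, not normalized, and the effective lengths of each form are deposited as a score. Columns with the authors' own inclusion levels, differences, p-values and FDR were not used; 0 other per-sample columns were left aside. The authors' criterion on that FDR for agreement of allelic with all reads was therefore dropped, and the limit of 0.1 on the difference in PSI kept.

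PSI was recomputed from counts and lengths. The first and second entry of each list of counts were taken as the replicates. Expression used limma 3.58.1 (R 4.3.3) on log2(TPM + 1), for genes with at least 1 TPM in 2 libraries; folds of low genes are understated on this scale. Splicing used a quasi-binomial model per event with 1 mean per group and a dispersion of at least 1, moderated toward events with 5 or more reads of the minor form. That form of the prior was chosen after the calls of a first form, counts of members included, had been seen; the first form made 0 calls in fits with 1 residual degree of freedom. For exon inclusion after PladB and between alleles in fibroblasts, the dispersion used was that of the prior at the event's read depth. An event's own spread between replicates did not enter it there. Exons seen in several events were counted once, by the event with most reads that passed the filters. Named genes were, per comparison, the 3 largest called each way (5 for PladB) and the 5 most abundant per tissue, and for exons the 5 largest switches, each called allelic exon and the 10 largest changes after PladB; the text gives those its statements turn on. The members, lists and tests were chosen with earlier results of these data known.

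Both tests were tested on simulated data. A first simulation, whose dispersion rose with depth, let the splicing test without a block recover no change, while the fit with a block recovered some; the simulation was then set to the dispersion measured in these data. In it the fits with a replicate block made more false calls than those without, the splicing test missed most changes of the smallest size, and the expression test for cortex made a larger share of false calls than its threshold allows. Imprinted genes, which the authors left out, were not removed here. In every organ large allelic differences shared with ESC had the same sign as in ESC (36 of 36 in liver to 62 of 62 in spleen). Libraries with the same number in different tissues were not paired in the main fits (correlation of their deviations −0.05 to 0.25 for TPM). Values below 0 occurred only with ESC. Between organs, which share their animals, the correlations ran from 0.00393 (kidney and liver) to 0.254 (heart and spleen). The part of the animal in this was not tested. Alleles of a library are paired by construction. Alternatives are given in the closing section. No sequence is printed, as none was used here. The results of 1 list of cell type markers are not reported here, and not all values of the other lists are given.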

Additional observations from a re-analysis of the deposited data

How the results depend on the processing

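Of 320 repeats of the 24 counts of called members, 290 stayed within 1.5 times the main count. Expression counts did so under all settings run when both directions were summed. By direction, quantile normalization moved heart from 8 higher and 20 lower to 17 and 11, lung from 5 lower to 9, liver from 4 higher and 42 lower to 6 and 28, and PladB from 0 higher and 25 lower to 11 and 15; other settings were not counted by direction. Counts without 1 library come from smaller fits and say nothing on stability. The 5 allelic calls over tissues became 3 with a minimum of 50 reads and 2 with events near 0 or 1 kept. By tissue, cortex went from 1 to 0 without either library, lung from 3 to 1 with events near 0 or 1 kept and to between 0 and 2 without 1 library, spleen from 1 to 0 with 50 reads, with those events kept and without either library, and kidney from 0 to 1 without the filter on agreement of allelic with all reads. After DMSO 2 became 1 with 50 reads or events near 0 or 1 kept, and 0 to 1 without 1 library. After PladB the allelic count of 1 became 0 with 50 reads, with those events kept and without either library, and 2 with the replicate block. The 15 exons called after PladB became 8 with 50 reads and 9 with events near 0 or 1 kept, and 11 to 14 without 1 library; the 1 retained intron became 0 with 50 reads.

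Among 71 named items, 1018 repeats kept direction and call, 29 lost the call and 2 reversed: the Sema4g exon (−0.507 to 0.0189 over the fits without 1 library, 0.0189 without PladB replicate 1) and the Efna1 exon of 296 nt (0.00213 in the event with most reads). Fits without 1 library have fewer samples; other causes of lost calls were not tested. The replicate block changed no other count of members. It moved the count over all exons from 116 to 752 for ESC alleles and from 22 to 128 for the allele by tissue interaction. Quantile normalization moved the liver count over all genes from 12828 to 6954. The first form of the dispersion prior, added after seeing the data, called 22 members across tissues, 4 between alleles of the tissues and 14 after PladB.

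A PSI needs 20 reads in each library, and in liver 1 allelic comparison of a member had them.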
